A study of Mus musculus with 20 samples.

Results

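The 7 genes Smarcc1, Ptch1, Pik3ca, Mtor, Ccdc88c, Mpdz and L1cam are mouse counterparts of genes in which human variants have been linked to congenital hydrocephalus. They were taken by gene symbol from the 13283 symbols of the expression table, and all 7 have a row. Their values come from RNA sequencing of C57BL/6 mouse embryonic stem cells, labelled male and cultured with FCS, LIF and 2i, a pair of kinase inhibitors. The series has 20 libraries of 5 genotypes in 2 systems. In the conditional system, 4 Trim71-cond libraries, whose genotype label is Trimfl/fl (a floxed allele), stand beside 4 Trim71-KO libraries, and codes 1A, 2B, 3A and 3B number the libraries of each group. The labels name neither what deleted the allele nor a clone for these cells. The clonal system has 3 WT clones, named C16, C5 and C7, 3 R595H/R595H clones (C14, C20, C24) and 3 R595H/+ clones (C15, C21, C23), each genotype in 4 libraries. C16, C14 and C15 have a library dated 20/1 and one dated 5/2, and their libraries were averaged to 1 value a clone. Nothing in the labels says that libraries of a group came from separate cultures, so p-values measure the spread between these libraries or clones, which may be technical.

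TRIM71 is an RNA-binding protein of stem cells and early neural progenitors, and changes of an arginine to histidine in the human protein, modelled in mouse by R595H, have been found in people with congenital hydrocephalus, a build-up of cerebrospinal fluid in the brain. The other risk genes act at different steps of brain development. SMARCC1 is a core scaffold subunit of the BAF chromatin remodelling complex. PTCH1 is the Hedgehog receptor that holds Smoothened inactive, PIK3CA is a catalytic subunit of PI3-kinase, and MTOR is the growth-controlling kinase downstream of it. CCDC88C, also called Daple, binds Dishevelled, MPDZ is a scaffold with many PDZ domains at cell junctions, and L1CAM is an adhesion molecule of growing axons whose gene on the X chromosome is a classic cause of hydrocephalus.

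The codon that R595H alters is shown because it sets the clonal genotypes apart. In the GRCm38 annotation, the altered codon of Trim71 lies in coding sequence on the minus strand at chr9:114513428-114513430. It is in capitals in the reference window chr9:114513416-114513442, read 5′ to 3′ on the coding strand.
Trim71 codon of R595H: ggcaagctctgcAGGccctggggcgtg
The arginine codon AGG is the reference base sequence, and the edited bases of the clones were not analysed here. Smarcc1 lies on the same chromosome as Trim71, 4.27 Mb away, at chr9:110117708-110240178 on the plus strand with 28 exons in its longest coding transcript. Mtor at chr4:148448611-148557683 (plus strand, 58 exons) and Mpdz at chr4:81278500-81442815 (minus strand, 48 exons) share chromosome 4. The others are Ptch1 at chr13:63508328-63573598 (minus strand, 23 exons), Pik3ca at chr3:32397671-32468486 (plus strand, 21 exons), Ccdc88c at chr12:100911523-101029056 (minus strand, 30 exons) and L1cam at chrX:73853778-73896105 (minus strand, 29 exons).

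Mtor and Pik3ca belong to one signalling pathway and differed in opposite directions after Trim71 deletion, as given below, so the start of each gene is shown. The 300 bases run from 250 before to 50 after the RefSeq gene start in build GRCm38.p6, on the plus strand, and capitals mark CCAAT or its reverse complement ATTGG. The Mtor stretch is chr4:148448332-148448631 and the Pik3ca stretch is chr3:32396815-32397114.
Mtor: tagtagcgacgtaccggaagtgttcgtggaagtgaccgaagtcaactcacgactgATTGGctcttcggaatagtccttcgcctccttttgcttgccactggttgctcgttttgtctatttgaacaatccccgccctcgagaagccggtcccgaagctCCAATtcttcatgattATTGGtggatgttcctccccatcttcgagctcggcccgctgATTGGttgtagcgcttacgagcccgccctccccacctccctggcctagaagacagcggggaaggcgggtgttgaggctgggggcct
Pik3ca: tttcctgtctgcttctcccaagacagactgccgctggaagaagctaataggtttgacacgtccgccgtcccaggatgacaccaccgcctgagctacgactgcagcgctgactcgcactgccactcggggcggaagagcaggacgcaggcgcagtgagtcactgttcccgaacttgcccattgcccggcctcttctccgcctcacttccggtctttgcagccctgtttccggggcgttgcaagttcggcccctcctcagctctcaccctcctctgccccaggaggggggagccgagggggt
The Mtor stretch holds 4 of these 5-letter matches, which do not overlap each other, and the Pik3ca stretch holds 0. The stretch of Ptch1, which was lower after deletion as Mtor was, also holds 0, and so does that of Smarcc1. That of Trim71 holds 1, and L1cam has a stretch with 0 and another with 1. For Ptch1, Smarcc1 and L1cam the RefSeq start lies inside the GENCODE gene whose position is given above. Of 32851 RefSeq stretches of the same length, 37.4% hold at least 1 match and 1.06% hold 4 or more. The motif was picked after these sequences had been read. Both stretches are rich in CpG, with 21 CG dinucleotides at Mtor and 20 at Pik3ca against a median of 7 over all stretches. A match is a run of letters, not a bound site, and binding was not measured.

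The deposited values are named normalised counts by the authors and were inferred to be on a log2 scale. A difference of 1 is then a factor of 2. They are not corrected for gene length, so levels are compared between genotypes and not between genes. Read depth is unknown from such values. Trim71 itself was checked first. It was at 8.94, 8.94, 8.93 and 9.01 in the Trim71-cond libraries 1A, 2B, 3A and 3B and at 7.44, 7.43, 7.47 and 7.53 in the Trim71-KO libraries of the same codes, so no library went against its label. The difference was -1.48 ± 0.06 (SE), a 2.80-fold lower value (exact two-sided permutation p = 0.0286, the smallest that 4 against 4 can give). Trim71 was higher in R595H/R595H clones, at 10.11 ± 0.10 (SD, n = 3) against 9.50 ± 0.03 in WT and 9.58 ± 0.04 in R595H/+ (R595H/R595H minus WT 0.61 ± 0.07, SE, adjusted p = 0.00063). As a check of the labelled cell type, 13 of 14 embryonic stem cell markers exceeded the level needed for testing, with Nanog at 10.46 and Sox2 at 9.58 over all libraries.

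After Trim71 deletion, Pik3ca rose and Mtor, Mpdz and Ptch1 fell, each by 1.18 to 1.26-fold, while the differences of Smarcc1 and Ccdc88c did not pass the test and L1cam was too low to test. Genes were tested with limma where their mean over the libraries of a fit was at least 3.32, the log2 of 10, and called at an adjusted p under 0.05 over all genes tested. By that rule 4 of the 6 tested members were called in Trim71-KO against Trim71-cond (66.7%), 1 higher and 3 lower. The background is 18.6% of 9580 genes, 9.24% higher and 9.37% lower. The 2 groups did not overlap for the same 4 members, against 20.8% of all genes tested. The median size of the difference was 0.26 over the 6 members and 0.11 over all genes tested. The members were chosen with earlier results of these data known, so these shares and sizes are a description and not a test of the set. With a stricter minimum of 5.64, limma called 3 members, and 1385 of 5755 genes. In bulk RNA, a lower share of cells expressing a gene and less RNA per cell cannot be told apart.

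**Figure D1:**
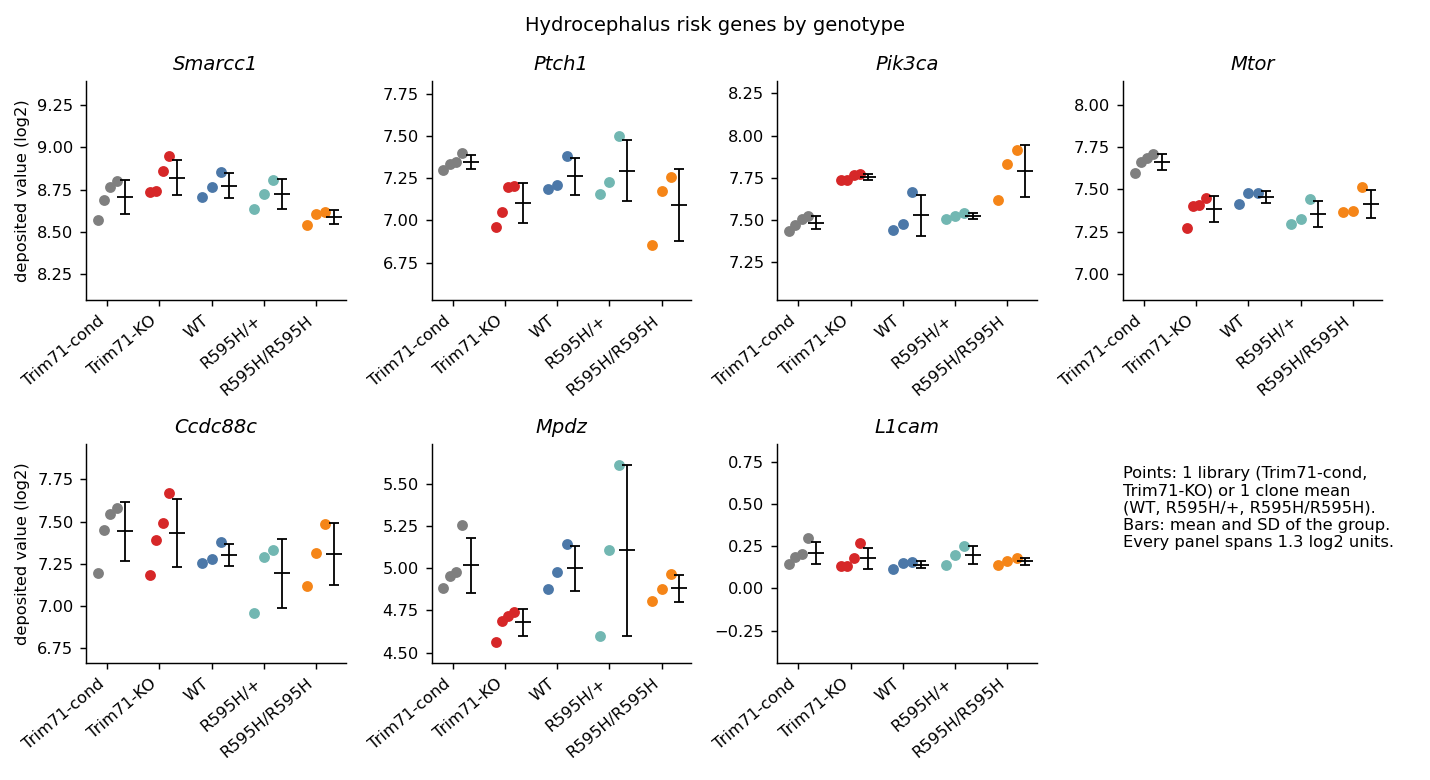
Deposited log2 value (vertical axis, every panel spanning 1.3 units) of each of the 7 genes by genotype; points are libraries in the conditional system and clone means in the clonal system, and bars are the group mean ± SD. Trim71-KO and Trim71-cond are apart for Ptch1, Pik3ca, Mtor and Mpdz, and the R595H/+ clones of Mpdz run from 4.60 to 5.61.

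In the PI3K and mTOR pair, Pik3ca was at 7.47, 7.50, 7.52 and 7.43 in the Trim71-cond libraries 1A, 2B, 3A and 3B. The Trim71-KO libraries of the same codes held 7.74, 7.74, 7.77 and 7.77. Every deleted library was thus above every floxed one, and the values within each group were close together: the within-group SD of Pik3ca, 0.030, was at the 0.55th percentile of all genes above the minimum, whose median was 0.108. The difference was 0.27 ± 0.06 (SE; adjusted p = 0.0033), with a 95% interval of 0.15 to 0.39, or 1.21-fold higher. Mtor moved the other way. Its Trim71-cond values were 7.66, 7.69, 7.71 and 7.60, and its Trim71-KO values were 7.41, 7.27, 7.40 and 7.45. The highest deleted library lay below the lowest floxed one. The difference was -0.28 ± 0.06 (adjusted p = 0.0040), with a 95% interval of -0.41 to -0.15, or 1.22-fold lower.

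Ptch1, both the receptor that restrains Hedgehog signalling and a textbook target of it, had Trim71-cond values of 7.40, 7.35, 7.30 and 7.34 and Trim71-KO values of 7.05, 7.20, 7.20 and 6.96, in the order 1A, 2B, 3A, 3B. The groups did not overlap, and the deleted libraries fell into a higher pair (2B and 3A) and a lower pair (1A and 3B). The difference was -0.24 ± 0.07 (adjusted p = 0.019), 1.18-fold lower. This call is sensitive to the libraries used: without the 3B library of Trim71-KO the difference was -0.20 and the adjusted p 0.065. The call was also lost when both 1A libraries were left out (adjusted p = 0.11). Without the 1A library of Trim71-cond alone the adjusted p was 0.0488, and without that of Trim71-KO alone 0.0498.

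Mpdz, the junction scaffold, had Trim71-cond values of 4.88, 4.98, 4.96 and 5.25 and Trim71-KO values of 4.69, 4.72, 4.57 and 4.74. The 3B floxed library stood highest, and even the lowest floxed library was above all deleted ones. The difference was -0.34 ± 0.09 (adjusted p = 0.014), 1.26-fold lower. Without the 3B library of Trim71-cond it was -0.26 and the adjusted p 0.052.

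Smarcc1, the BAF scaffold subunit, was at 8.80, 8.57, 8.76 and 8.69 in Trim71-cond and at 8.74, 8.86, 8.74 and 8.95 in Trim71-KO, and the groups overlapped. The difference was 0.11 ± 0.06 (adjusted p = 0.21). Its first 123 annotated bases are shared with Dhx30 on the other strand, and the library kit named in the labels does not mark strand. Dhx30 itself was at 7.98 ± 0.07 in Trim71-cond and 7.76 ± 0.14 in Trim71-KO (SD, n = 4), and its part in the Smarcc1 values was not tested. Ccdc88c, the Dishevelled-binding member, had values of 7.45, 7.55, 7.58 and 7.20 in Trim71-cond and 7.49, 7.67, 7.39 and 7.18 in Trim71-KO. The lowest value of both groups was in code 3B. The difference was -0.01 ± 0.09 (adjusted p = 0.95), with a 95% interval of -0.20 to 0.18, and its within-group SD in this system, 0.19, was at the 94.7th percentile. L1cam was at 0.15 to 0.30 in Trim71-cond and at 0.13 to 0.27 in Trim71-KO, far under the minimum for testing. Its gene overlaps Arhgap4, on the same strand, over 4664 bases, and Arhgap4 was at 2.76 ± 0.09 and 2.61 ± 0.04.

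Read within each replicate code, the 4 called members kept their direction in 4 of 4 codes. This follows from groups that do not overlap and is no further support. Pik3ca had the most even differences, at 0.27, 0.23, 0.25 and 0.33 for 1A, 2B, 3A and 3B. Those of Mtor were -0.25, -0.41, -0.31 and -0.15, and those of Mpdz were -0.19, -0.26, -0.39 and -0.51. Ptch1 was lower by a small margin in 2B (-0.15) and 3A (-0.09) and by a larger one in 1A (-0.35) and 3B (-0.38). Smarcc1 was split: its difference was 0.29 in 2B and 0.26 in 3B but -0.07 in 1A and -0.02 in 3A. With the code as a replicate block all 4 calls held (adjusted p of 0.012 for Pik3ca, 0.011 for Mtor, 0.022 for Mpdz and 0.040 for Ptch1). The codes are pairs by label only. Over all genes above the minimum, deviations of same-code libraries from their group means had r of -0.89 (1A), -0.12 (3A), -0.09 (2B) and 0.13 (3B).

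**Figure D2:**
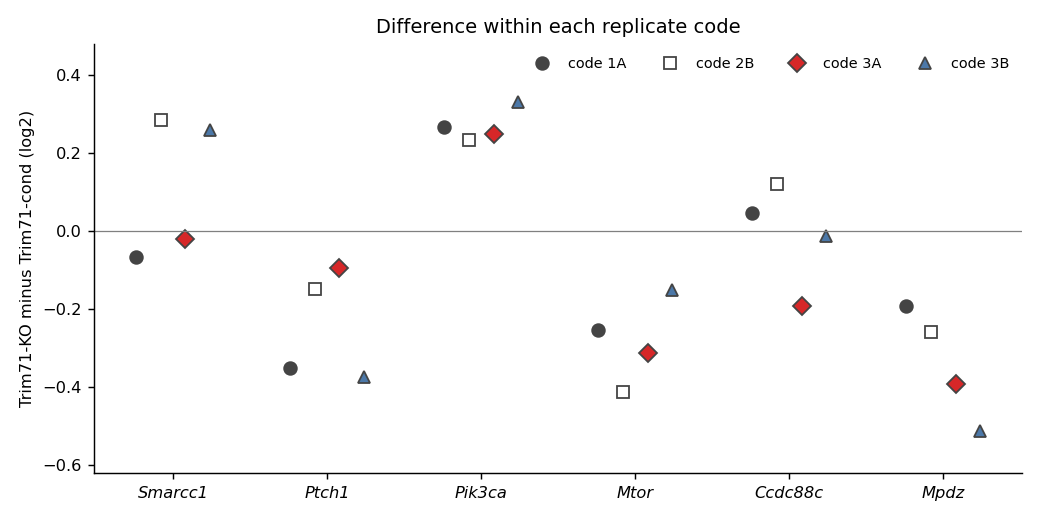
Trim71-KO minus Trim71-cond value (log2, vertical axis) within each replicate code (1A to 3B) for the 6 tested genes; each symbol is 1 pair of libraries. All 4 symbols lie above 0 for Pik3ca and below 0 for Ptch1, Mtor and Mpdz, as they must where groups do not overlap. Smarcc1 and Ccdc88c have symbols on both sides.

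Other measures also separated the Trim71-KO from the Trim71-cond libraries. The mean of the Y-linked genes Ddx3y, Eif2s3y, Kdm5d and Uty was 5.88 to 6.20 in Trim71-cond and 5.65 to 5.80 in Trim71-KO, without overlap, and with that mean as a covariate none of the 4 member calls held (adjusted p of 0.20 for Mtor, 0.50 for Pik3ca, 0.59 for Ptch1 and 0.97 for Mpdz). The difference of Mpdz was then -0.02, and those of the other 3 were between -0.40 and 0.23 with unchanged signs. Since the Y-linked mean itself separates the 2 groups, the parts of genotype and covariate cannot be told apart in this fit. The summed linear level of the 14 embryonic stem cell markers, all in the table, was 10049 to 10850 in Trim71-cond and 11386 to 12171 in Trim71-KO. That of neural progenitor markers, of which 3 of 9 (Sox1, Nes and Olig2) have a row and none is at 0, was 125.3 to 141.8 and 142.5 to 165.2, a narrow gap. Of these 3 markers 2 were tested by limma, with differences of 0.07 and 0.50, and 1 was called. Sox1 stayed between 1.38 and 1.95 in all libraries. Sums overlapped between these 2 groups for neuronal (5 of 7 genes with a row), ependymal and cilia (6 of 10), endoderm (5 of 7), mesoderm (1 of 6, Eomes) and feeder fibroblast markers (2 of 8), and Foxj1, a regulator of motile cilia, was between -0.20 and -0.07. The part of the marker sums in the members' differences was not tested.

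In the R595H/R595H clones, no member was called against WT. The same limma test called 0 of 6 members at a background of 3.42% of 9588 genes, although 2 of the 6, Pik3ca and Smarcc1, had an unadjusted p under 0.05, as did 2021 of all genes. Groups of clones did not overlap for 1 member, Smarcc1, against 29.7% of all genes. Pik3ca had clone values of 7.44 (C16), 7.67 (C7) and 7.47 (C5) in WT. In R595H/R595H it was at 7.83 (C14), 7.62 (C20) and 7.92 (C24), so that C14 and C24 stood above every WT clone and C20 fell within the WT range. The difference was 0.26 ± 0.09 (adjusted p = 0.11), with a 95% interval of 0.07 to 0.45, close in size to the 0.27 after deletion. Leaving out clone C20, the one within the WT range, brought the difference to 0.35 and the adjusted p to 0.041. With both systems in 1 fit the adjusted p was 0.042. In the other 16 of 18 alternatives Pik3ca was not called. Over all 18 its difference ran from 0.20 to 0.35, with an adjusted p of up to 0.33. The single clones sampled on both dates gave 0.32 for C14 minus C16 on 20/1 and 0.46 on 5/2, and with the 5/2 libraries alone the difference over the clones was 0.28 (adjusted p = 0.13).

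Smarcc1 was at 8.76, 8.85 and 8.70 in the WT clones C16, C7 and C5 and at 8.60, 8.62 and 8.54 in the R595H/R595H clones C14, C20 and C24. All mutant clones were below all WT clones, and the difference of -0.19 ± 0.07 (adjusted p = 0.15) did not pass the test over all genes. C14 minus C16 was -0.21 on 20/1 and -0.11 on 5/2. Ptch1 was 7.38, 7.21 and 7.18 in WT and 7.18, 6.85 and 7.26 in R595H/R595H; C24 overlapped WT and C20 was the lowest (-0.17 ± 0.11, adjusted p = 0.42). For Mpdz the difference was -0.12 ± 0.18 (adjusted p = 0.75), for Mtor -0.04 ± 0.08 (adjusted p = 0.80) and for Ccdc88c 0.00 ± 0.11 (adjusted p = 0.99). The intervals of these 3 ran from -0.50 to 0.26, -0.20 to 0.12 and -0.23 to 0.24. L1cam was between 0.12 and 0.18 in every WT and R595H/R595H clone. The Y-linked mean differed among these cells too, at 3.89 to 6.00 in WT libraries, 3.72 to 4.36 in R595H/R595H and 4.02 to 5.61 in R595H/+. With that mean as a covariate no member was called by limma against WT in either R595H genotype. Pik3ca was then at 0.26 (adjusted p = 0.21) and Smarcc1 at -0.24 (adjusted p = 0.12) in R595H/R595H.

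No member was called in the heterozygous clones, and Mpdz varied widely among them. In R595H/+ against WT limma called 0 of 6 members and 0% of 9588 genes (736 had an unadjusted p under 0.05, none of them a member), and no member's groups were apart, against 12.5% of all genes. Pik3ca was at 7.52, 7.51 and 7.54 in C15, C21 and C23, a difference of -0.00 ± 0.09 from WT with a 95% interval of -0.19 to 0.18. Mpdz spread most: C21 was at 5.61, C15 at 5.11 and C23 at 4.60, so that a single genotype covered more than the whole range of the other clones. The within-group SD of Mpdz in the clonal system, 0.31, was at the 99.6th percentile of all genes above the minimum (median 0.113), and the difference of 0.11 ± 0.18 has an interval from -0.27 to 0.48. The C15 libraries of 20/1 and 5/2 themselves differed, at 4.94 and 5.27, which is the largest gap among 21 such pairs of repeat libraries over the 7 members (median gap 0.087). Ccdc88c was lowest in C21, at 6.96 against 7.33 in C15 and 7.29 in C23. Between R595H/R595H and R595H/+, 0 of 6 members were called by limma at a background of 0.772% (1793 genes had an unadjusted p under 0.05), and groups were apart for 2 members, Pik3ca and Smarcc1, against 25.4% of all genes. Pik3ca was higher by 0.26 ± 0.09 (adjusted p = 0.14) and Smarcc1 differed by -0.14 ± 0.07 (adjusted p = 0.32) in the homozygous clones. These comparisons share the R595H/R595H or WT clones with those above.

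**Figure D3:**
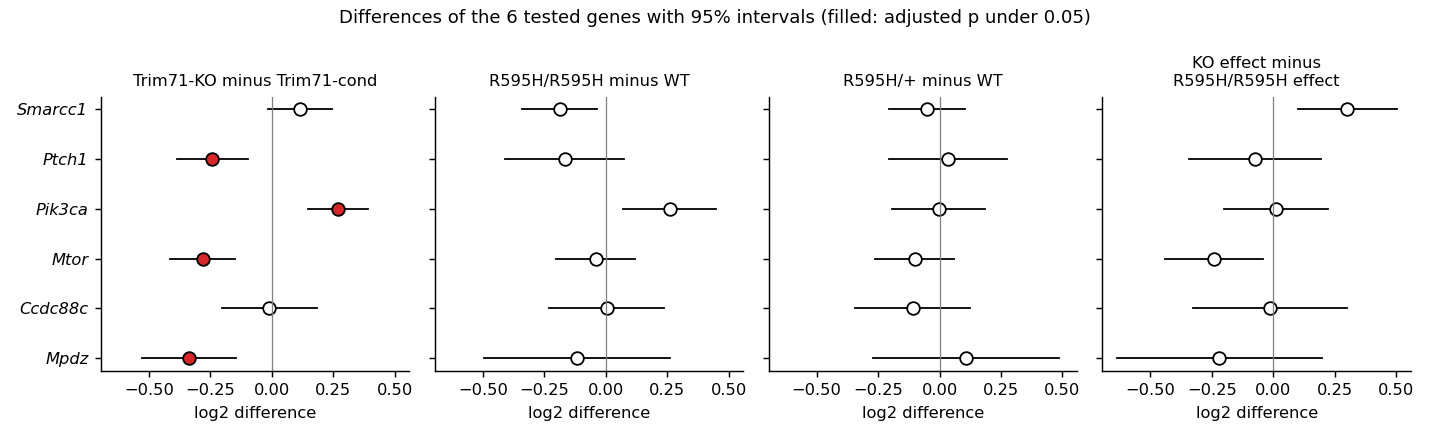
Log2 difference (horizontal axis) with its 95% interval for the 6 tested genes in Trim71-KO minus Trim71-cond, R595H/R595H minus WT, R595H/+ minus WT, and the first difference minus the second; filled points have an adjusted p under 0.05. Filled points appear in the first panel alone, for Ptch1, Pik3ca, Mtor and Mpdz.

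Whether deletion and the homozygous change differ in their effect was tested as the difference of the 2 differences over 17 libraries and clones. By limma, 0 of 6 members passed, at a background of 1.42% of 9588 genes, and 2 members had an unadjusted p under 0.05, as did 1666 genes. These were Smarcc1, whose 2 differences of 0.11 and -0.19 were 0.30 ± 0.10 apart (adjusted p = 0.10), and Mtor, whose differences of -0.28 and -0.04 were -0.24 ± 0.10 apart (adjusted p = 0.19). For Pik3ca the gap was 0.01 ± 0.10 with an interval of -0.20 to 0.22, so its differences in the 2 systems were not told apart within that range. The gaps were -0.08 ± 0.13 for Ptch1, -0.22 ± 0.20 for Mpdz and -0.01 ± 0.15 for Ccdc88c. Starting cells and handling also differ between the systems, and in this test their part and that of genotype cannot be told apart.

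Ordered by mean level, Pik3ca ran from 7.79 in R595H/R595H through 7.75 in Trim71-KO, 7.53 in WT and 7.52 in R595H/+ to 7.48 in Trim71-cond. The step from Trim71-KO to WT is the one between neighbours whose values did not overlap. Mtor was highest in Trim71-cond at 7.67, and the other groups, WT at 7.46, R595H/R595H at 7.42, Trim71-KO at 7.38 and R595H/+ at 7.36, overlapped from one to the next. The Trim71-cond values of Mtor overlapped neither those of WT nor those of Trim71-KO. Steps between groups of different systems, such as that from Trim71-cond to WT, were not tested. In them, starting cells and handling cannot be told apart from genotype. Mpdz was lowest in Trim71-KO at 4.68, apart from R595H/R595H at 4.88, and above that WT at 5.00, Trim71-cond at 5.02 and R595H/+ at 5.11 overlapped. The R595H/+ clone C23, at 4.60, was within the Trim71-KO range of 4.57 to 4.74. For Ptch1 the order was Trim71-cond 7.34, R595H/+ 7.30, WT 7.26, Trim71-KO 7.10 and R595H/R595H 7.09. For Smarcc1 it was Trim71-KO 8.82, WT 8.77, R595H/+ 8.72, Trim71-cond 8.71 and R595H/R595H 8.59, and for Ccdc88c Trim71-cond 7.44, Trim71-KO 7.43, R595H/R595H 7.31, WT 7.30 and R595H/+ 7.19. Neighbours in these 3 orders overlapped throughout, as did those for L1cam, whose group means were between 0.14 and 0.21.

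Calls in the lists around the members are to be read against the 18.6% of all genes called in Trim71-KO and the 3.42% called in R595H/R595H, and a share near these is no result about a list. In Trim71-KO the share called was 11.4% for the PI3K and mTOR list, 18.2% for BAF subunits, 20.0% for Hedgehog genes, 11.1% for planar polarity genes and 14.3% for the L1 family and its partners. In R595H/R595H it was 2.86%, 4.55%, 20.0%, 0% and 0% in the same order, where 20.0% is 2 of 10 genes. For other genes linked to hydrocephalus it was 25.0% (2 of 8) in Trim71-KO and 11.1% (1 of 9) in R595H/R595H, with Trim71 itself among the calls. Of 12 apical polarity genes, 16.7% were called higher in Trim71-KO, against 9.24% of all genes, and 16.7% were called in R595H/R595H. Among 35 tested genes of the PI3K and mTOR pathway, 3 were higher and 1 lower in Trim71-KO, with a list median of 0.05 against 0.00 over all genes. Pik3r1, the regulatory partner of the Pik3ca protein, rose by 0.31 ± 0.09 (adjusted p = 0.016). Rragc, a Rag GTPase that brings mTOR to the lysosome, rose by 0.27 ± 0.07 (adjusted p = 0.013), and Deptor, an inhibitor bound to mTOR, by 0.25 ± 0.08 (adjusted p = 0.037). Sesn1, an inhibitor of mTOR signalling, was lower by a difference of -0.23 ± 0.08 (adjusted p = 0.047). Rragc was the 1 gene of this list called in R595H/R595H against WT, at 0.37 ± 0.08 (adjusted p = 0.026).

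Among 22 tested BAF subunits, 1 was higher and 3 were lower in Trim71-KO. Phf10, the subunit BAF45a that is exchanged when neural progenitors become neurons, fell by 0.44 (SE 0.07, adjusted p = 0.00026), and in R595H/R595H by 0.38 (SE 0.09, adjusted p = 0.036), the 1 call among BAF genes there. The progenitor subunit Actl6a (BAF53a) was at -0.23 ± 0.07 (adjusted p = 0.021), Bcl7c at -0.31 ± 0.10 (adjusted p = 0.038) and Bicral at 0.21 ± 0.07 (adjusted p = 0.049) in Trim71-KO. The list median was 0.02.

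Of 10 tested Hedgehog pathway genes, 2 were lower in Trim71-KO and none higher. Lrp2, an endocytic receptor that binds Sonic hedgehog, was lower by a difference of -0.75 ± 0.11 (adjusted p = 8.7e-05). Smo, the signal transducer held in check by the Ptch1 protein, was at -0.28 ± 0.08 (adjusted p = 0.016), and its mean of 3.37 in Trim71-KO is close to the minimum for testing. In R595H/R595H the 2 called genes were others: Gli3, a transcription factor of the pathway, at -0.41 ± 0.09 (adjusted p = 0.033), and Evc2, a ciliary component, at -0.35 ± 0.09 (adjusted p = 0.049). In Trim71-KO, Gli3 was at -0.22 (adjusted p = 0.070) and Evc2 at -0.17 (adjusted p = 0.21). Lrp2 was at 0.41 ± 0.22 (adjusted p = 0.29) in R595H/R595H.

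Around Ccdc88c, 2 of 18 tested Dishevelled and planar polarity genes were higher in Trim71-KO and none lower. Its paralog Ccdc88a (Girdin) rose by 0.39 ± 0.06 (adjusted p = 0.00026), and the planar polarity cadherin Celsr1 by 0.29 ± 0.08 (adjusted p = 0.011). None of these 18 was called in R595H/R595H (limma, 3 with an unadjusted p under 0.05). Around Mpdz, 2 of 12 tested apical polarity genes were higher in Trim71-KO (16.7%, against 9.24% higher over all genes). The claudin Cldn6 rose by 0.64 ± 0.08 (adjusted p = 2.5e-05), and the junctional adhesion molecule F11r was at 0.23 ± 0.08 (adjusted p = 0.045). In R595H/R595H the polarity scaffolds Pard3, at 0.44 ± 0.07 (adjusted p = 0.0073), and Pard6g, at 0.34 ± 0.09 (adjusted p = 0.044), were the 2 called of 12 (16.7%, against 3.42% of all genes). The Pard6g call was lost in 11 of 17 alternatives. Around L1cam, 1 of 7 tested genes was called in Trim71-KO, Msn (moesin, which links membrane proteins to actin), at 0.59 ± 0.06.

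Of 8 other tested genes linked to hydrocephalus, the actin nucleator Fmn2 was higher in Trim71-KO by 0.34 ± 0.08 (adjusted p = 0.0046), and Trim71 itself was the other call. Trim71 was the only call of 9 tested in R595H/R595H. In R595H/+ against WT, limma called 0 genes in all 7 lists, with 11 tests at an unadjusted p under 0.05.

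**Figure D4:**
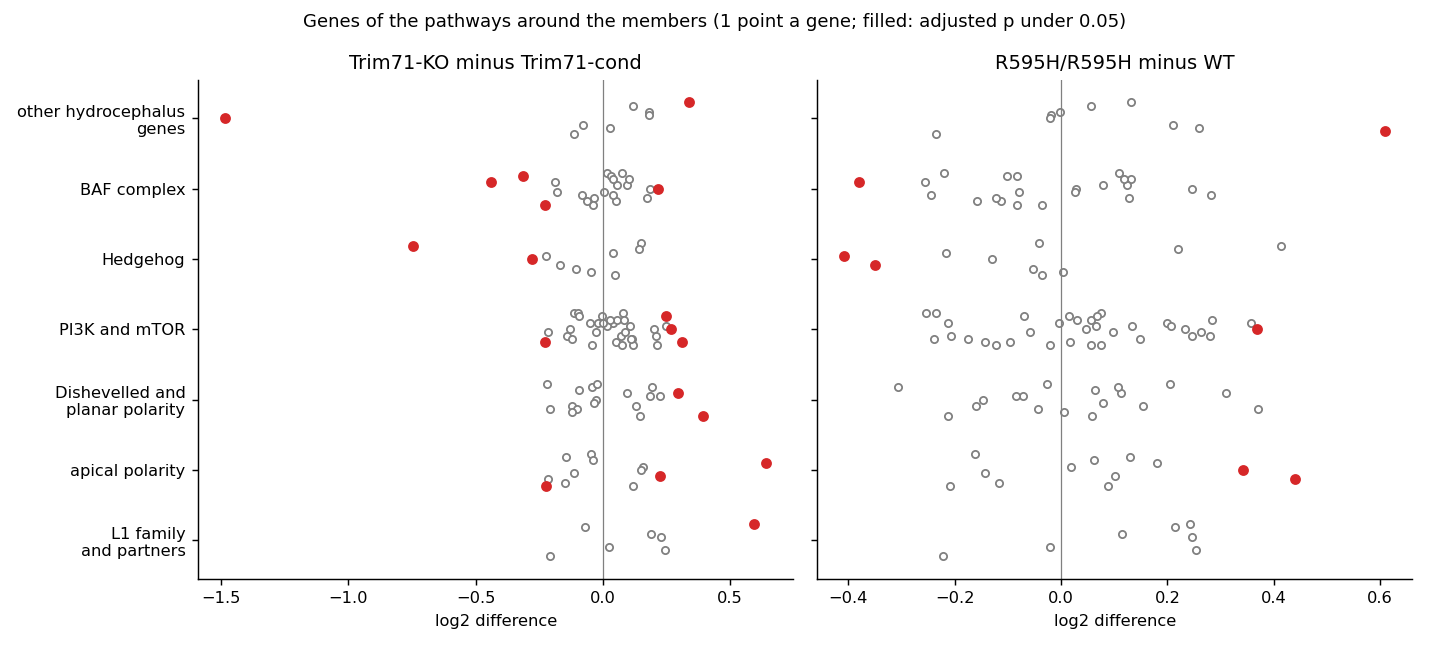
Log2 difference (horizontal axis, different ranges) of every tested gene in 7 lists around the members, for Trim71-KO minus Trim71-cond and R595H/R595H minus WT; filled points have an adjusted p under 0.05. The leftmost filled point in the first panel is Trim71 at -1.48 and the next is Lrp2 at -0.75, while called genes are few in every list.

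The members did not move as a block. Over the 17 libraries and clone means, with the mean of each system taken off, the pairwise Pearson r of the 6 tested members ran from -0.56 (Pik3ca with Mtor) to 0.34 (Mtor with Mpdz). These values share libraries and include the differences between genotypes, so they are a description. By the same measure, the genes most like Pik3ca were Tgs1 (r = 0.95), Ube2d3 (0.94) and Smc4 (0.92), and the least like it were Rfc3 (-0.93), Rpl39l (-0.92) and Nsun2 (-0.90). For Mtor the most alike were Mtch1 (0.90), Lmnb2 (0.89) and Lgals1 (0.88), and the least alike Dynlt3 (-0.91), Srpk2 (-0.91) and Synj1 (-0.89). Ptch1 was most like Pink1 (0.92), Pfkfb3 (0.88) and Nadk2 (0.87) and least like Ssna1 (-0.88), Gsto1 (-0.86) and Tdh (-0.85). Mpdz followed Hspa4, Nlrp4c and Zcchc10 (0.90 each) and ran against Ahnak2 (-0.89), Ripk2 (-0.86) and Apoe (-0.86). Smarcc1 had Ythdc1 (0.88), Lrif1 (0.86) and Ubap2 (0.84) at one end and Slc39a1 (-0.84), Mycl (-0.82) and Idh3g (-0.79) at the other. For Ccdc88c these were Mmp11 (0.87), Hist2h4 (0.85) and Sun1 (0.83), and Sap130 (-0.91), Fam171a1 (-0.84) and Atad3a (-0.84).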

How the data were processed

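The members and gene lists were chosen with earlier results of these data known. Per the submitters' processing notes the authors used CASAVA 1.8, STAR and DESeq2; no source used here gives the genome build, annotation or counting step. The deposited values are a score with no stated unit, 13283 symbols by 20 libraries from -0.65 to 18.0, inferred to be on a log2 scale and shrunken at low levels, which would understate folds of low genes. Depth cannot be recovered, so no counting error is given. The planned logging was not needed. limma 3.58.1 in R 4.3.3 (trend and robust, Benjamini-Hochberg) was run on genes with a mean of at least 3.32, in 1 fit of 8 conditional libraries, 1 of 9 clone means, and 1 of all 17 for the difference of differences, and was tested on simulated data. Both libraries of a code share a labelled day, so the codes pair them by label; deviations of same-code libraries had r of -0.89 (1A), -0.12 (3A), -0.09 (2B) and 0.13 (3B) over 9585 genes. Named genes were the members, Trim71, up to 4 called genes per list and comparison with the smallest p, and the 3 genes most and least like each member. The result for 1 list gene is not reported here. Positions are from GENCODE vM21 (GRCm38), promoters from RefSeq; Ccdc88c and Mpdz were not matched there.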

Additional observations from a re-analysis of the deposited data

Results flagged for a closer look

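Of the 136 genes for which limma told the Trim71-KO difference and the R595H/R595H difference apart, 3 are Trim71 or in the lists around the members, and none is 1 of the 7 risk genes. Trim71 was lower by a difference of -1.48 after deletion and higher by 0.61 in R595H/R595H clones, which are -2.09 apart (SE 0.08). Pard3, a polarity scaffold, was at -0.21 (adjusted p = 0.092) and 0.44 (adjusted p = 0.0073), which are -0.65 apart (SE 0.12, adjusted p = 0.0088). Ccdc88a, the paralog of Ccdc88c, was at 0.39 (adjusted p = 0.00026) and -0.21 (adjusted p = 0.35), which are 0.61 apart (SE 0.14, adjusted p = 0.027). The Ccdc88a gap did not pass without WT clone C7 (0.44, adjusted p = 0.094) nor with the 5/2 libraries alone (0.55, adjusted p = 0.081). Differences between the 2 systems other than genotype cannot be told apart here. No library of the conditional groups stood apart from its group for any of the 7 genes or Trim71 by Dixon's test at the 95% level, and groups of 3 clones were not tested.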

How the results depend on the processing

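With the Y-linked mean as a covariate, the 1783 calls of Trim71-KO against Trim71-cond became 52 and the members called 0 of 6. Sesn1 changed sign to 0.0008. That mean separates the 2 groups, so its part and that of genotype cannot be told apart, and the cause was not tested. A replicate block by code gave 1392 calls and changed no member call, and leaving out single libraries gave 1291 to 1634 calls and 3 to 4 members. With both systems in 1 fit Mpdz was not called (adjusted p = 0.079). For R595H/R595H against WT, the 328 calls became 176 with a stricter minimum, 157 with equal library totals, 191 with the 5/2 libraries alone, 134 with the Y-linked covariate and 603 with both systems in 1 fit, where 1 member, Pik3ca, was called. Leaving out single clones gave 67 (without C14) to 541 (without C21) calls and 0 to 1 members. For R595H/R595H against R595H/+, the 74 calls became 116 with no minimum, 37 with the stricter one, 19 with equal totals, 3 with the Y-linked covariate, 213 with 12 libraries and clone as a random block and 278 in 1 fit of both systems, and 7 to 80 without single clones. The difference of differences had 136 calls, 83 with the 5/2 libraries alone and 40 (without C7) to 213 (without C21) without single libraries or clones. The alternative that leaves out both 1A libraries was chosen after seeing the data. The stricter minimum gave no value for Mpdz. Called list genes were often near the threshold: under alternatives Bicral, Sesn1, Deptor, F11r and Bcl7c each lost their Trim71-KO call in 9 to 13 cases, and Gli3, Evc2, Pard6g, Phf10 and Rragc their R595H/R595H call in 7 to 11. Depth is unknown and limits what can be said of L1cam.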
